A study of Mus musculus with 11 samples.

Results

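Levels of 10 transcription factor genes were followed through early reprogramming: the introduced factors Pou5f1 (Oct4), Klf4 and Myc, the Klf4 relatives Klf2, Klf5, Klf3, Klf6 and Klf9, and the Myc relatives Mycn and Mycl. They are 10 of the 22180 genes that carry a name on the array. A gene with several probe sets of 1 symbol would have been represented by the one of highest mean over the 11 arrays, but each of the 10 has exactly 1. No probe set listing several symbols names any of them.

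RNA was measured on 11 mouse arrays, 1 per sample. Fibroblasts from mouse embryos (Rosa-rtTA+/-, a doxycycline-dependent activator at the Rosa locus) received viral constructs that doxycycline switches on, namely tetO-Sox2, tetO-Myc, tetO-Klf4 and tetO-Oct4, and doxycycline was added from day 0, the day after infection. CD49d+ cells and CD73+ cells, both called poised in the labels, and CD73- cells, called non-poised, were double sorted at day 6 and day 9, beside unsorted cells of the same days. The 3 controls were uninfected MEF of the same Rosa-rtTA+/- genotype, the partially reprogrammed line SC4, which is 1 line, and V6.5 embryonic stem cells (ESC) grown with LIF. CD73 is encoded by Nt5e and CD49d by Itga4. Sox2 was introduced with the others but is not among the 10 genes. All 8 reprogramming arrays and MEF therefore share the rtTA allele, and what SC4 carries is not stated in the labels.

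Oct4 is a POU-domain factor at the centre of the pluripotency network, and with Sox2, Klf4 and Myc it can return a fibroblast to a stem cell state. Klf proteins bind GC-rich and CACCC-type sequences through zinc fingers at their C terminus. Klf2, Klf4 and Klf5 overlap in keeping mouse stem cells self-renewing, whereas Klf3 mainly represses, through the corepressor CtBP. Myc, Mycn and Mycl pair with Max on E-box sequences and drive ribosome production and growth, and Mycn is the relative best known from stem cells and neural progenitors.

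The 250 bases before the start of 3 genes are shown because the results turn on them: Klf3 separated the sorted populations, Klf2 lay below both MEF and ESC, and Mycn was above the floor only in ESC. Sequences are from RefSeq, build GRCm38.p6, on the gene's own strand: Klf3 at chr5:64803271-64803520 (plus strand), Klf2 at chr8:72318812-72319061 (plus strand) and Mycn at chr12:12941837-12942086 (minus strand). Capitals mark CCACCC, the core of a CACCC box, or its reverse complement GGGTGG.
Klf3: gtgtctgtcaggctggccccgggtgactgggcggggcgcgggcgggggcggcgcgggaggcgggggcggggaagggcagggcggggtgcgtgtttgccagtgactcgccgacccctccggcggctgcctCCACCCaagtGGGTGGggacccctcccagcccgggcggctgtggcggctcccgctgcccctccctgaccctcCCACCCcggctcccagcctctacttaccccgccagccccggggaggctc
Klf2: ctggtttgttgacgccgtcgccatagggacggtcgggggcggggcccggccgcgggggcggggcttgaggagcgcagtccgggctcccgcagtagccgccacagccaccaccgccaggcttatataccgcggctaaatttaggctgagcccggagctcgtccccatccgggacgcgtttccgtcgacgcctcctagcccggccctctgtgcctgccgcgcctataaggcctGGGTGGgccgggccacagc
Mycn: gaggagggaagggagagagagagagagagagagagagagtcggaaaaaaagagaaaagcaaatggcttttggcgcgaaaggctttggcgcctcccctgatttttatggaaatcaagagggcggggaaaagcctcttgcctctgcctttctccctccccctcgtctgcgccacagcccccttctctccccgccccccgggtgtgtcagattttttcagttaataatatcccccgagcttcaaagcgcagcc
Klf3 has 3 such matches, the nearest 44 bases before the start, and Klf2 has 1, at 14 bases. Mycn has none. Among the windows not shown, a Pou5f1 window holds 4, the nearest at 14 bases, and another Pou5f1 window none. Mycl has 1, and Klf4, Klf6 and Klf9 have none. Over 32851 windows of this length 28.1% hold CCACCC on either strand. GGGCGG, the GC-box core, was found 6 times before Klf3, 2 times before Klf2 and 2 times before Mycn, and 32.7% of windows hold it. The E-box CACGTG, which reads the same on both strands, was found in the windows of Klf4 and Klf6, once in each, and in 6.02% of all windows. The octamer ATGCAAAT was in none of the 9 windows matched to 8 of the 10 genes, and in 1.6% of all. These counts describe letters in a window and are not binding sites.

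Intensities are the deposited linear values, with a floor of 100 below which nothing is listed. A gene at the floor therefore has only an upper bound. Between 52.14% and 54.31% of the probe sets of an array lay at the floor. The labelled cell types carried their markers: all 9 fibroblast markers were above the floor in MEF, where their intensities summed to 39649, against 4689 to 12414 on the reprogramming arrays. In ESC 8 of these 9 were also above the floor, with a sum of 3276. All 7 stem cell markers were above the floor in ESC, with a sum of 21915, against 825 to 1679 on the reprogramming arrays. A gene at the floor counts as 100 in all such sums. The 2 genes of the sorted surface proteins summed to 4292 to 4864 on the 4 poised arrays and 462 to 485 on the CD73- arrays. Probe sets differ in how brightly they report, so no gene's intensity is set against another's. The files do not place the probes on the transcripts, so for Pou5f1, Klf4 and Myc transcripts of the introduced and the resident gene cannot be told apart.

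**Figure D1:**
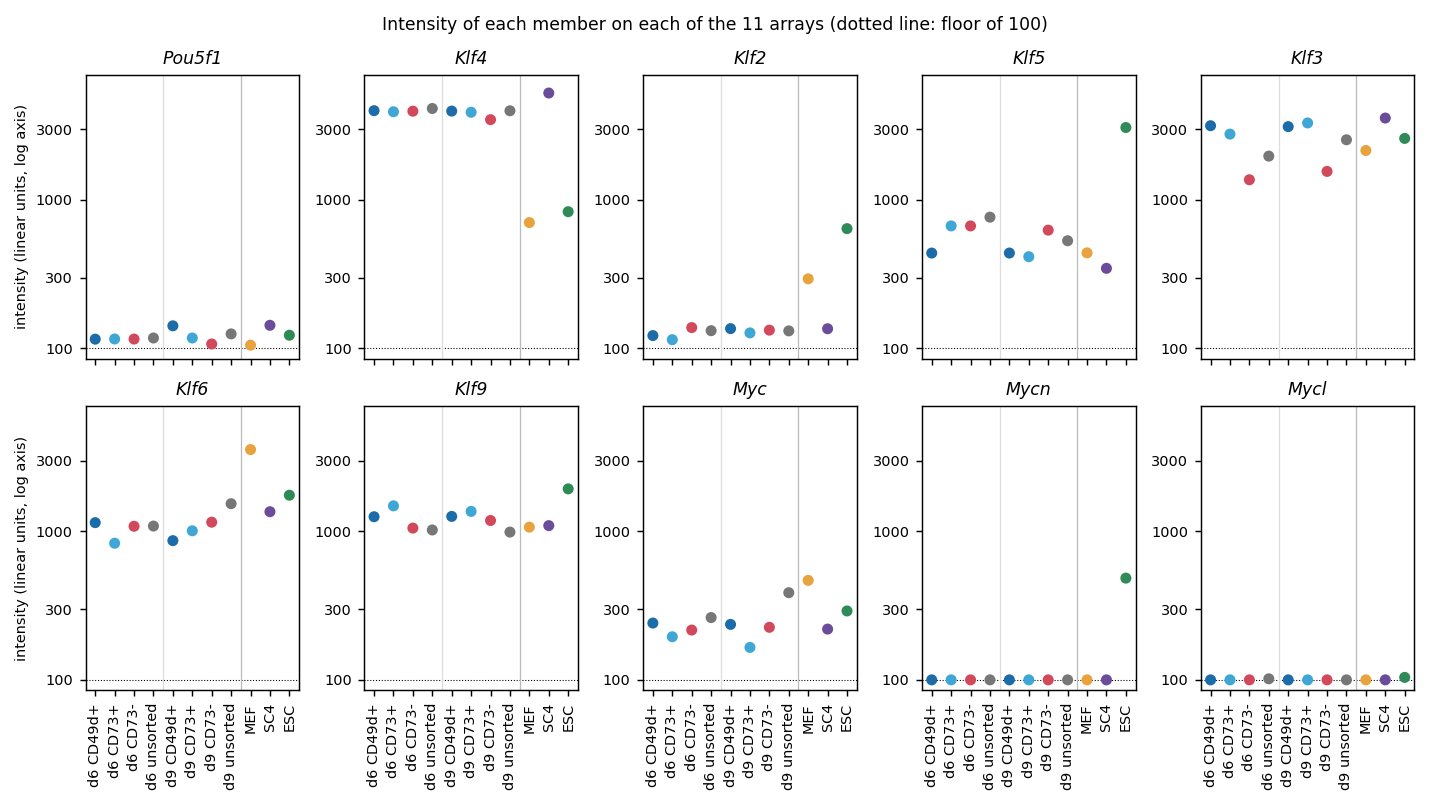
Intensity (linear units on a log axis) of each of the 10 genes on each of the 11 arrays, 1 point an array, with the floor of 100 dotted; d6 and d9 are day 6 and day 9. Klf4 is high on the reprogramming arrays and in SC4, Klf5 and Mycn stand out in ESC, Klf3 is lowest on both CD73- arrays, and Pou5f1, Mycn and Mycl lie at or near the floor elsewhere.

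Among the introduced factors, Pou5f1 (probe set 17337155) lay close to the floor in every sample. At day 6 it read 115 in CD49d+, 116 in CD73+, 116 in CD73- and 118 in unsorted cells, and at day 9 142, 118, 107 and 125 in the same order. MEF had 105, SC4 143 and ESC 123. The ESC array, where this gene is a defining factor, thus fell inside the range of the reprogramming arrays. All 8 reprogramming arrays were above MEF, as in 30.1% of all named genes above the floor on any array, but the mean difference of 0.18 log2 units (SD 0.119 over the 8 arrays, which are 4 populations on 2 days and no replicates) was no more than 1.13-fold and shrank to 0.03 when each array was centred on its median. A probe set this dim in ESC gives no measure of Oct4 in any of these populations.

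Klf4 (probe set 17425401) behaved otherwise. At day 6 its intensity was 3997 in CD49d+, 3930.0 in CD73+, 3965 in CD73- and 4134 in unsorted cells, and at day 9 3971, 3900.0, 3476 and 3989. MEF had 704, ESC 834 and SC4 5255. Every reprogramming array lay above MEF, as for 30.1% of genes by any amount, above ESC (25.6%) and below SC4 (17.6%). The 4 populations differed little. The mean of the 8 arrays was 5.56-fold above MEF (log2 difference 2.47, SD 0.0736, 1 MEF array and no test) and 4.70-fold above ESC. SC4 was 7.46-fold above MEF and 6.30-fold above ESC. The reprogramming mean was 1.34-fold below SC4. Its lowest value, 3476 in CD73- cells at day 9, was the only one of the 8 under 3900.

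Myc (probe set 17311846) was not higher on the reprogramming arrays than in uninfected fibroblasts. At day 6 it read 241 in CD49d+, 195 in CD73+, 217 in CD73- and 263 in unsorted cells. At day 9 the values were 236, 165, 226 and 387. MEF had 468, above all 8, while SC4 had 220 and ESC 291. All 8 below MEF is a pattern shared by 30.2% of genes. The mean was 1.99-fold below MEF (log2 -0.996, SD 0.356), just inside the 2-fold line, and it passed that line when arrays were centred on their medians (-1.16). The day 9 unsorted array was the only reprogramming array above ESC.

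The remaining genes were not introduced. Klf2 (probe set 17502440) had 122 in CD49d+, 115 in CD73+, 138 in CD73- and 132 in unsorted cells at day 6. The day 9 values were 136, 127, 133 and 131. MEF had 294, SC4 136 and ESC 641. The reprogramming arrays and SC4 thus formed a low group near the floor, with MEF and then ESC above. The reprogramming mean lay 2.28-fold below MEF (log2 -1.19, SD 0.0887) and 4.97-fold below ESC, in both cases on all 8 arrays, as for 30.2% and 26.5% of genes. The low values lie close to the floor, so these folds may understate the differences.

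Klf5 (probe set 17302397) was chiefly a stem cell signal. At day 6 it read 439 in CD49d+, 669 in CD73+, 669 in CD73- and 766 in unsorted cells, and at day 9 439, 415, 627 and 531. MEF had 440, SC4 346 and ESC 3078. All 8 reprogramming arrays lay below ESC, as for 26.5% of genes, and the mean of 8 was 5.54-fold below it (log2 -2.47, SD 0.338). Against MEF 5 of 8 arrays were higher, and the mean difference of 0.34 was smaller than the SD. All 8 lay above SC4, as for 17.4% of genes, with a mean 1.61-fold higher.

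Klf6 (probe set 17285000), a factor induced by injury and growth signals, was highest in uninfected fibroblasts. It read 1146 in CD49d+, 833 in CD73+, 1083 in CD73- and 1087 in unsorted cells at day 6, and 866, 1009.6, 1154 and 1537 at day 9. MEF had 3559, SC4 1357 and ESC 1754. All 8 arrays were below MEF (as for 30.2% of genes) and ESC (26.5%), and all but the day 9 unsorted array were below SC4. The mean was 3.32-fold below MEF (log2 -1.73, SD 0.274) and 1.64-fold below ESC.

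Klf9 (probe set 17358214), known as a target of glucocorticoid and thyroid hormone receptors, varied over less than 1 log2 unit on the 11 arrays. It read 1256 in CD49d+, 1486 in CD73+, 1053 in CD73- and 1022 in unsorted cells at day 6, and 1262, 1363, 1184 and 989.7 at day 9. MEF had 1068, SC4 1094 and ESC 1934. ESC was the highest array, 1.62-fold above the reprogramming mean, and 26.5% of genes had all 8 reprogramming arrays below ESC. Against MEF the mean differed by 0.16 log2 units, less than the SD of 0.209, and by -0.0076 with centred arrays.

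Klf3 (probe set 17437674) had its lowest values in CD73- cells. At day 6 it read 3165 in CD49d+, 2778 in CD73+, 1369 in CD73- and 1975 in unsorted cells. At day 9 it read 3119.9, 3303, 1558 and 2545. MEF had 2155, SC4 3564 and ESC 2599. The 4 poised arrays lay above MEF and the CD73- arrays below it, so the mean of 8 hides a split and is not used here for Klf3.

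The Myc relatives lay at or near the floor outside ESC. Mycn (probe set 17279998) lay at the floor of 100 on 10 arrays and read 485 in ESC, at least 4.85-fold higher than in any other sample. Mycl (probe set 17418119) was at the floor on 9 arrays, with 102 in day 6 unsorted cells and 104 in ESC, and no level can be read from it.

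Counted together, 1 of the 10 genes (Klf4) was at least 2-fold higher on the reprogramming arrays than in MEF, where 9.21% of 14301 genes were, and 2 (Klf2 and Klf6) were at least 2-fold lower, where 8.94% were. Myc joined them under centring and under quantile normalisation. Against ESC 1 gene (Klf4) was at least 2-fold higher (6.05% of all genes) and 3 (Klf2, Klf5 and Mycn) at least 2-fold lower (6.45%). Against SC4 none of the 10 was 2-fold apart, and 6.03% of all genes were. These comparisons share the 8 reprogramming arrays, and each control is 1 array, so no test was made and the control's own spread is unknown. Centring moved the differences from MEF by about 0.16 log2 units.

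**Figure D2:**
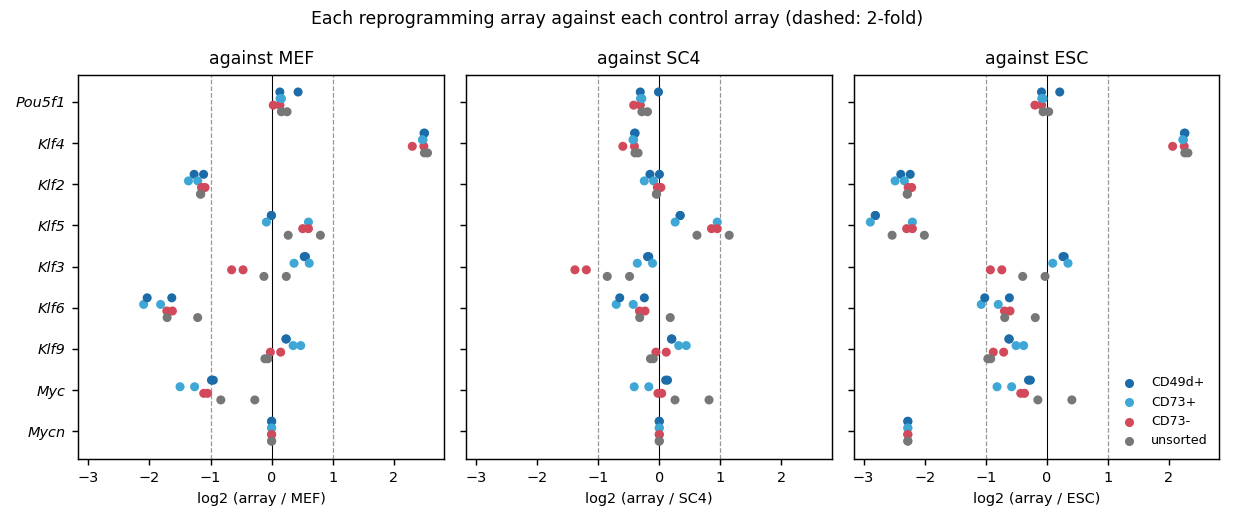
Log2 ratio of each reprogramming array to MEF, SC4 and ESC (1 point an array, coloured by population), for 9 of the genes, Mycl being left out; dashed lines mark 2-fold. All 8 Klf4 points lie beyond 2-fold above MEF and ESC, all 8 Klf2 points beyond 2-fold below both, and the Klf3 points of CD73- cells lie apart from those of poised cells.

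The comparison of poised with CD73- cells asks which genes differ between the cells that the labels call poised and non-poised. Klf3 was 2.11-fold higher in poised cells, and it was the 1 gene of the 9 tested that passed. The poised arrays spanned 2778 to 3303 and the CD73- arrays 1369 to 1558, with no overlap, as for 14.5% of genes. Unsorted cells lay between them on both days. The log2 difference was 1.08 ± 0.0892 (SE, limma, adjusted p = 0.0064). It was similar in each pair and day: 1.21 for CD49d+ and 1.02 for CD73+ at day 6, and 1.002 and 1.08 at day 9. Both differences of a day share the same CD73- array, so they are not separate. Over all genes 12% passed this test, 7.17% higher in poised cells and 4.88% lower. In bulk samples, fewer cells of a type and less RNA per cell cannot be told apart. Without the day 6 CD73- array, which leaves CD73- cells with 1 array assumed to vary like the rest, Klf3 differed by 1.08 with an adjusted p of 0.054.

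The error in these tests is the disagreement between the 2 days. The labels do not say whether day 6 and day 9 came from separate cultures, and p-values then measure only the spread between these samples, which may be technical.

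Some markers of other cell types differed along the same split. Endothelial markers summed to 1830.3 to 2453 on the poised arrays and 1169 to 1422 on the CD73- arrays, with 2 to 4 of 8 above the floor in poised cells, and Vwf, Emcn and Erg at the floor on all 4 of them. Tek carries this separation (1055 to 1673 and 459 to 633): without it the sums were 729 to 780.0 in poised and 709.8 to 789 in CD73- cells, which overlap. In the line SC4, Tek read 1299 while the other 7 endothelial markers lay at the floor. Keratinocyte markers summed to 1119.8 to 1595 in poised and 1874 to 1966 in CD73- cells, with Trp63, Ivl, Lor and Dsg3 at the floor in both. Krtdap carries this separation (176 to 493 and 642 to 877), and without it the sums overlap. Stem cell markers summed to 825 to 1151 in poised and 1174 to 1679 in CD73- cells, and only Utf1 was above the floor in all 6 samples. Utf1 carries this separation (225 to 551 and 574 to 1012). The other stem cell markers lay at the floor in these samples, but for Nanog in day 9 CD73- cells (167). Fibroblast markers (4689 to 10561 and 6765 to 8745) and macrophage and blood markers (1272 to 1394 and 1154 to 1286) overlapped between the groups. Which cells these markers came from, and the part of such cells in the Klf3 difference, were not tested.

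No other of the 10 genes passed. Klf9 had the next clearest difference, with all 4 poised arrays (1256 to 1486) above both CD73- arrays (1053 and 1184), a pattern of 14.5% of genes. Its log2 difference was 0.26 ± 0.0749 (limma, adjusted p = 0.0864). Klf5 differed by -0.43 ± 0.163 (adjusted p = 0.155), and its day 6 CD73+ and CD73- arrays were equal. Klf2 (-0.12 ± 0.0692), Klf6 (-0.23 ± 0.186), Myc (-0.09 ± 0.165), Pou5f1 (0.13 ± 0.0927) and Klf4 (0.09 ± 0.0616) had adjusted p-values between 0.32 and 0.772. Mycl was tested on 1 array barely above the floor, and Mycn could not be tested.

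**Figure D3:**
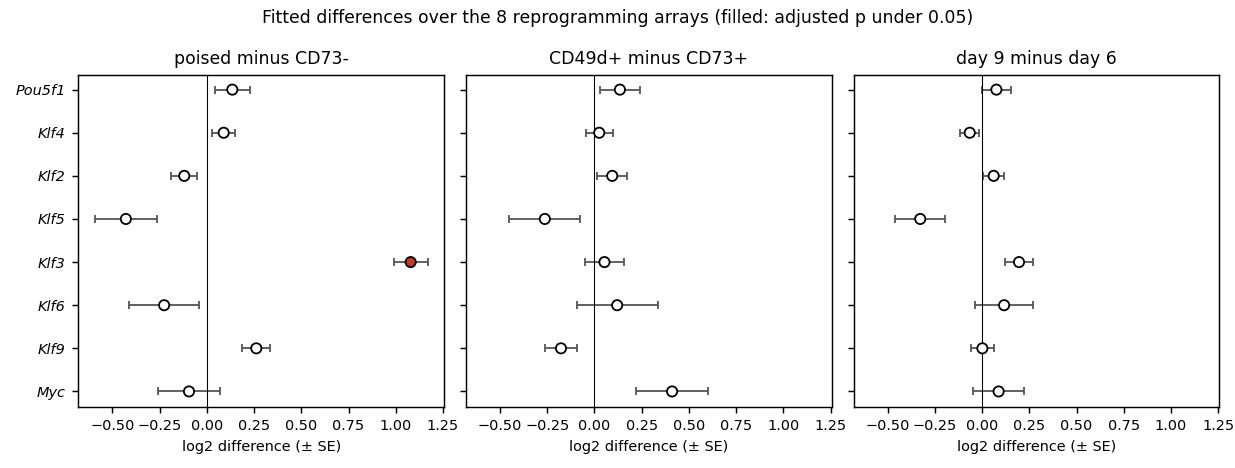
Fitted log2 difference with its standard error for the 9 tested genes less Mycl (Pou5f1, near the floor, is included), in 3 comparisons over the 8 reprogramming arrays; a filled point has an adjusted p under 0.05. Klf3 in poised minus CD73- cells, at 1.08, is the only filled point.

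CD49d+ and CD73+ cells are the 2 poised populations, sorted on different surface proteins. Both carried RNA of both proteins: Nt5e read 2828 and 2704 on the CD49d+ arrays, and Itga4 1082 and 1206 on the CD73+ arrays. On the CD73- arrays Nt5e read 332 and 292 and Itga4 153 and 170. How far the 2 populations share cells was not tested. None of the 9 tested genes passed (limma), against 0.03% of all genes. At an unadjusted p under 0.05 there were 0 of the 9 and 24.1% of all genes. Myc was higher in CD49d+ than in CD73+ cells on both days, 241 against 195 and 236 against 165, and the log2 difference was 0.41 ± 0.19 (adjusted p = 0.266). Klf3 differed by 0.05 ± 0.103, with opposite signs at day 6 and day 9.

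Between day 6 and day 9 none of the 9 genes passed in limma, and neither did any other gene (0% called). At an unadjusted p under 0.05 there was 1 of the 9, Klf3, and 1544 genes over all (11.6%). Klf3 differed by 0.20 ± 0.0728 (adjusted p = 0.412), being higher at day 9 in 3 of the 4 populations. Klf5 differed by -0.33 ± 0.133 (adjusted p = 0.446). Its day 9 minus day 6 difference was -0.69 in CD73+ and -0.53 in unsorted cells, -0.09 in CD73- and below 0.01 in CD49d+ cells. Here the error is the disagreement among the 4 populations, which are no replicates of a day.

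Sorted cells as a whole were set against unsorted cells in a comparison added after the values were seen. None of the 9 genes passed (limma), against 8.56% of all genes. At an unadjusted p under 0.05 there were 2 of the 9, Klf9 and Myc, and 30.6% of all genes. Myc was lower on every sorted array than on the unsorted array of its day, as for 12.3% of genes, by a log2 difference of -0.59 ± 0.155 (adjusted p = 0.0797). The day 9 unsorted array carries much of this: without it the difference was -0.28, and without the day 6 one -0.90. Klf9 was higher on every sorted array, as for 10.8% of genes, by 0.32 ± 0.0706 (adjusted p = 0.0558), and passed with centred arrays (0.0371), with quantile normalisation (0.0493) and without the day term (0.0423). Keratinocyte markers summed to 5285 to 5298 on the unsorted arrays, with 7 of 9 above the floor and Trp63 and Lor at it, and to 1119.8 to 1966 on the sorted arrays, with 4 to 5 of 9. Fibroblast markers summed to 8738 to 12414 and 4689 to 10561. Which cells these markers came from, and the part of such cells in the Myc and Klf9 values, were not tested.

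**Figure D4:**
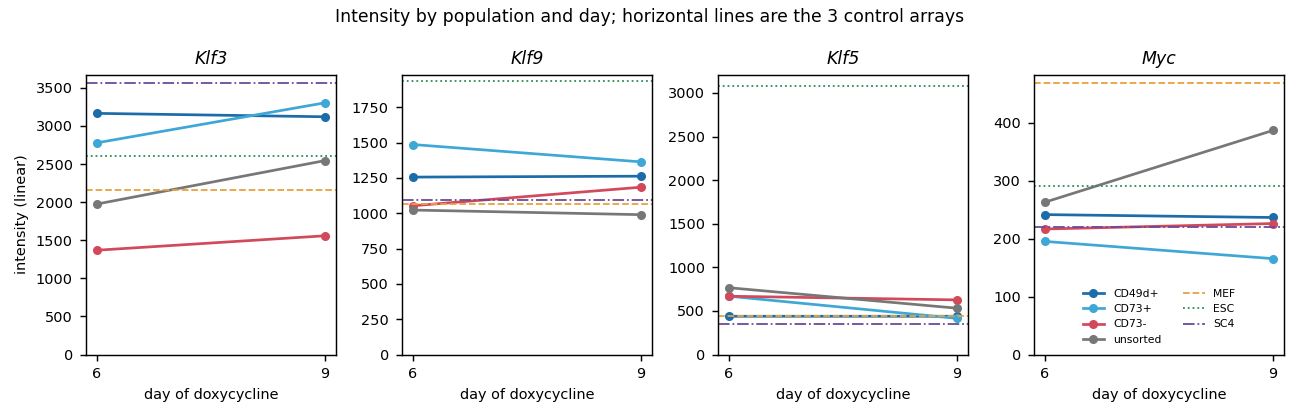
Intensity (linear axis from 0) of Klf3, Klf9, Klf5 and Myc by day in each population, 1 array a point, with MEF, SC4 and ESC as horizontal lines. Klf3 keeps its order of poised, unsorted and CD73- cells on both days, and Myc is highest in unsorted cells on both days.

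The order of the populations differed from gene to gene. For Klf3 it was CD49d+, CD73+, unsorted and CD73-, and only the first pair overlapped between their 2 arrays. For Klf9 it was CD73+, CD49d+, CD73- and unsorted, and for Myc unsorted, CD49d+, CD73- and CD73+, in both with no neighbours overlapping. For Klf5 and Klf6 every pair of neighbours overlapped. For Klf4 only CD49d+ and CD73+ did not overlap, and those 4 arrays lay between 3900.0 and 3997. The share of all genes with such orders was not counted, so no order is read as particular to these genes.

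Other Klf and Sp genes were read from a list of 20 relatives, 16 of which could be tested. Poised cells had 2 higher, Klf12 and Klf10 (7.17% of all genes), and none lower (4.88%). The median log2 difference was 0.03 against -0.01 over all genes. Klf12, a repressor of AP-2 alpha, read 597, 676, 663 and 714 on the poised arrays and 339 and 417 on the CD73- arrays, and rose 1.76-fold in poised cells (log2 0.81 ± 0.131, limma adjusted p = 0.0254). Klf10, a TGF-beta early response gene, was 1.35-fold higher (0.44 ± 0.0917, limma adjusted p = 0.0437). Its poised arrays (998 to 1089) lay above both CD73- arrays (711 and 814), as for 14.5% of genes. Against MEF 3 of 16 were at least 2-fold higher (9.21% of all genes) and 1 lower (8.94%). Klf8 read 642 to 983 on the reprogramming arrays against 141 in MEF, 5.47-fold higher. Klf10 was 2.56-fold and Klf16 2.25-fold higher, and Klf7, known from neurons, was 2.14-fold lower. Against ESC none of the 16 was 2-fold apart (12.5% of all genes). Against SC4 Klf12 was 3.16-fold and Klf8 2.16-fold higher, and Klf15, at the floor on 4 of 8 arrays, was lower.

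Of 14 POU relatives of Oct4, 5 could be tested. Poised cells had 1 higher (7.17% of all genes) and 2 lower (4.88%). Pou6f1 was 1.49-fold higher in poised cells (0.57 ± 0.0774, limma adjusted p = 0.017). Pou3f4 and Pou4f1, neural factors, were 2.24-fold and 1.28-fold lower (adjusted p = 0.0493 and 0.0264). Pou3f4 read 162, 261, 177 and 177 on the poised arrays and 440.0 and 415 on the CD73- arrays, and lay at the floor in both MEF and ESC, at least 2.58-fold below the reprogramming mean.

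The Myc-Max network has 20 genes on the array, 19 tested. Poised cells had 2 higher (7.17% of all genes) and 1 lower (4.88%), with a median of 0.11. Mxd4, a Max partner that opposes Myc, read 1009.8, 801, 754 and 768 on the poised arrays and 309 and 463 on the CD73- arrays. The difference was 2.19-fold (1.13 ± 0.211, limma adjusted p = 0.0336). MEF had 784, inside the poised range and above both CD73- arrays, SC4 had 389 and ESC 110. Mlx, the Max-like partner of the Mondo factors, was 1.22-fold higher (adjusted p = 0.0329). Mycbp, a Myc-binding protein, was 1.22-fold lower (adjusted p = 0.0314). Max itself read 2399 to 3081 on the 8 arrays against 2159.8 in MEF, and did not pass in the poised comparison. Against MEF 5 of 20 were at least 2-fold higher (4 with centred arrays, 9.21% of all genes) and none lower (8.94%). Leading them were Aurka (4.35-fold), a kinase that stabilises N-Myc, the helicase Ruvbl2 (3.63-fold), the deubiquitinase Usp28 (3.57-fold) and Mxi1 (2.97-fold).

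Genes known to respond to Myc were higher than in MEF although the Myc probe set was not. Of 28 on the array 18 were at least 2-fold higher on the reprogramming arrays (9.21% of all genes) and none was 2-fold lower (8.94%). The median log2 difference was 1.35 against 0.01 over all genes. With centred arrays 15 were 2-fold higher and with quantile normalisation 16. Polr1b, a subunit of RNA polymerase I, read 1086 to 1561 against 222 in MEF (6.04-fold). The nucleolar genes Dkc1 and Ncl were 5.31-fold and 4.14-fold higher, and Rcl1 3.91-fold. Against SC4 none of the 28 was 2-fold apart (6.03% of all genes). Against ESC 1 was (12.5%), Ccnd2, a D-type cyclin, at 6.59-fold higher.

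Within the sorted cells 6 of the 28 Myc response genes were lower in poised than in CD73- cells (4.88% of all genes). None was higher (7.17%), and the median was -0.27. The 6 lower genes were the ribosome factors Rrp12 (1.64-fold lower, limma adjusted p = 0.0287), Nop58 (1.38-fold), Nolc1, Ncl and Rcl1 (1.36-fold each) and Nop2 (1.22-fold, adjusted p = 0.0475). Ncl read 2768, 3799, 3208 and 3573 on the poised arrays and 4490.2 and 4526 on the CD73- arrays. The count was 13 with centred arrays and 13 without the day 9 CD49d+ array, 2 without either unsorted array, and 0 without either CD73+ or either CD73- array.

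Of 10 Klf4 response genes tested, 3 were higher (7.17% of all genes) and 1 lower (4.88%) in poised cells, with a median of 0.05. Klk1, a kallikrein, read 665, 434, 1167 and 2490.3 in poised cells and lay at the floor on both CD73- arrays (log2 3.26 as fitted, limma adjusted p = 0.0257). In SC4 it read 4714, above every poised array. Bmp4 was 2.16-fold higher (adjusted p = 0.0237) and the tight junction gene Ocln 1.98-fold (adjusted p = 0.01). Krt19, a keratin, was 1.34-fold lower (adjusted p = 0.0306). Cdh1, the E-cadherin gene, read 206 in MEF, 2962 in ESC and between 260 and 586 on the 8 reprogramming arrays. Against MEF 4 of 10 were at least 2-fold higher (2 with centred arrays, 9.21% of all genes) and 1 lower (8.94%). Krt17 led them at 5.46-fold at least, being at the floor in MEF, and Bmp4, at the floor on 1 of the 8 arrays, was 9.95-fold below MEF as fitted.

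Of the stem cell genes that work with Oct4, 14 of 16 were at least 2-fold lower on the mean of the 8 arrays than in ESC (6.45% of all genes). Their median was -3.15. Tdgf1 and Zfp42 were at the floor on all 8 arrays, at least 72.7-fold and 15.3-fold below ESC. Poised cells had 4 of 12 tested genes higher (7.17% of all genes) and 1 lower (4.88%). Nr0b1, a nuclear receptor that binds Oct4, was 7.52-fold higher (2.91 ± 0.265, limma adjusted p = 0.00765). It read 3908, 5284, 4755 and 5280.3 on the poised arrays and 406 and 993 on the CD73- arrays, against 1815 in ESC, so here poised cells lay above ESC. SC4, at 4116, lay above ESC too and inside the poised range. Fgf4 was 3.05-fold, L1td1 3.01-fold and Sall4 1.70-fold higher in poised cells, and L1td1 in day 9 CD49d+ cells (725) was above ESC (669). SC4 read 1763 for Fgf4, 1394 for L1td1 and 781 for Sall4, in each case above every poised array. Utf1 was 2.08-fold lower (adjusted p = 0.0142).

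The marker sums given beside Klf3 differ in the same comparison as these list counts, and their part in them was not tested. Some genes are shared, so the sums and the counts are not separate. All 7 stem cell markers are also in the stem cell gene list, and Sprr1a is in both the keratinocyte and the Klf4 response list. The calls of the gene lists above rest on few arrays and on the filter. With no filter on dim genes, p-values adjusted over all named genes gave 0 calls in the Myc-Max network in place of 3, 2 Myc response calls in place of 6, 1 Klf and Sp call in place of 2 and 2 POU calls in place of 3. Without the day 6 CD73+, day 6 CD73-, day 9 CD73+ or day 9 CD73- array, the poised comparison called 529, 201, 421 and 378 of all genes in place of 1604. The 2 Klf and Sp calls and the 3 POU calls were then 0 in each case. The Myc-Max network had 0, 0, 0 and 1 calls and the Klf4 response list 2, 0, 1 and 0. Of the 5 stem cell gene calls there were 5, 3, 3 and 3.

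**Figure D5:**
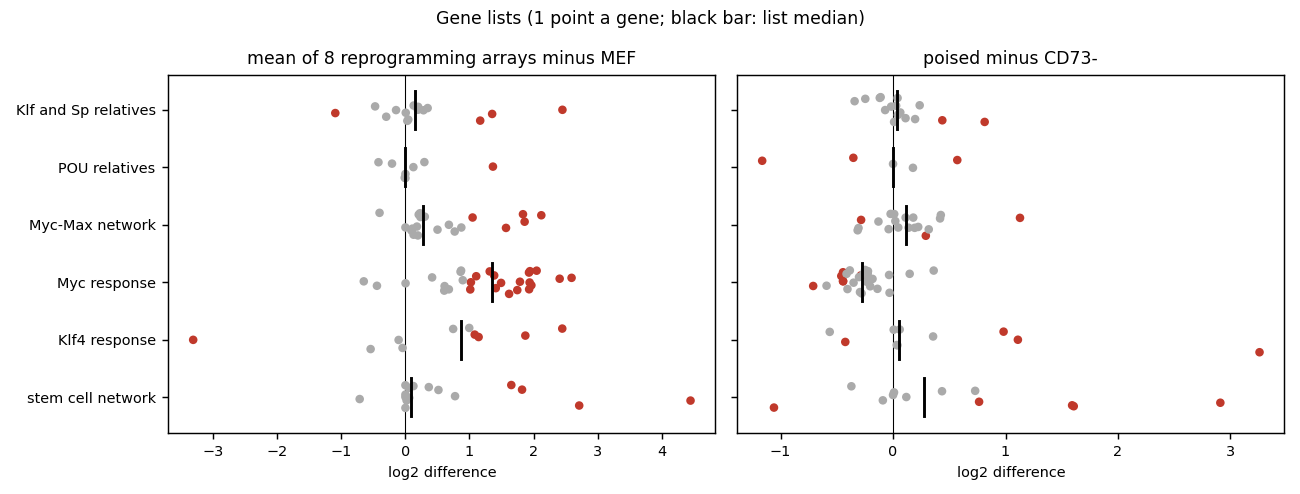
Log2 difference of every gene of 6 lists, from the mean of the 8 reprogramming arrays to MEF (left, coloured at 2-fold or more) and from poised to CD73- cells (right, coloured at an adjusted p under 0.05), with the list median as a bar. The Myc response genes lie mostly right of 0 against MEF and mostly left of 0 in poised cells.

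Of the 10 genes 6 were bright and variable enough to look for genes of like pattern, by Pearson r of log2 intensity over the 11 arrays among 5703 named genes. These r values are descriptions across samples that share their arrays, and the r over the 8 reprogramming arrays follows each. For Klf4 the nearest were Cd24a (r = 0.987, and -0.13 over the 8), Mrps25 (0.987 and 0.62) and Mdh1 (0.984 and 0.62). For Klf2 they were Fbxo44 (0.992 and 0.03), Nxph4 (0.989 and 0.58) and Mapk8ip1 (0.988 and 0.38). For Klf4 and Klf2 themselves SC4 lay with the reprogramming arrays, apart from MEF and ESC. For Klf3 they were Spry4 (0.947 and 0.94), Ckb (0.945 and 0.95) and Capn5 (0.939 and 0.97). For Klf6 they were Amotl2 (0.975 and 0.94), Plbd2 (0.970 and 0.86) and Wnt9a (0.961 and 0.78). For Klf5 they were Prtg (0.984 and 0.90), Sfmbt2 (0.975 and 0.85) and Wnk3 (0.963 and 0.64), and for Myc Prrx2 (0.970 and 0.95), Endod1 (0.960 and 0.92) and Srxn1 (0.953 and 0.90). In these 4 genes every r over the 8 reprogramming arrays was 0.64 or higher.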

How the data were processed

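Total RNA of 11 samples was measured on Affymetrix whole-transcript arrays, 1 array per group, with no replicate. The deposited values are linear intensities for 41345 probe sets with a floor of 100. Partek is named, without a version, per the submitters' processing notes. How background, summarisation and scaling were handled is not stated in the labels or files, so a difference between arrays can include scaling. Of the probe sets 23521 list 1 gene symbol, 1814 several and 16010 none in GEO's platform annotation. Symbols were updated through gene identifiers in a RefSeq table of GRCm38.p6.

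Log2 intensity of the 8 reprogramming arrays was fitted on population and day with limma's lmFit and eBayes (limma 3.58.1, R 4.3.3), leaving 3 residual degrees of freedom. Genes above the floor on any array (14301) were kept, and those with no residual spread were not tested, a choice made after an earlier fit, which left 13312. Adjusted p-values are Benjamini-Hochberg over these genes, with a threshold of 0.05. Comparisons with a control are folds of the mean log2 value, counted at 2-fold. The script was tested on simulated data.

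The 10 genes, the lists and the rules were chosen with earlier results of these data known. Named besides the 10 were list genes passing the test (up to 6 per list and comparison), the 4 of largest fold per list against a control, and the 3 genes of nearest pattern. Cdh1, Max and the marker genes were named after their values were seen. Alternatives changed scaling, filter, probe set choice, covariate and arrays in the fit.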

Additional observations from a re-analysis of the deposited data

How the results depend on the processing

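Direction and side of the threshold held for Klf3 in poised minus CD73- cells under every alternative but 1: without the day 6 CD73- array the adjusted p was 0.054 and 0 of the genes passed, so the count with 1 array left out ranged from 0 to 1, and the difference from 1.01 to 1.15. Values that turned sign were all small and none had passed. With 1 array left out, Myc ran from -0.203 to 0.0141 in poised minus CD73- cells, turning only without the day 9 CD73+ array. In CD49d+ minus CD73+ cells Pou5f1 ran from -0.014 to 0.283, Klf4 from -0.0121 to 0.0624 (-0.00534 with centred arrays), Klf3 from -0.0911 to 0.197 and Klf6 from -0.226 to 0.467. In day 9 minus day 6, Klf6 ran from -0.0113 to 0.29, Klf9 from -0.0546 to 0.0433 and Myc from -0.069 to 0.196, and the 6 sorted arrays alone gave -0.0113 for Klf6 and -0.069 for Myc. In sorted minus unsorted cells Pou5f1 ran from -0.0843 to 0.0147, Klf2 from -0.0803 to 0.00737 and Klf3 from -0.0125 to 0.215. There 1 gene, Klf9, passed with centred arrays, quantile normalisation or no day term. The causes were not tested. The count of all genes called ranged from 201 to 2107 in poised minus CD73- cells, 0 to 813 (4 as reported) in CD49d+ minus CD73+ cells, 0 to 5 between days and 15 to 1719 in sorted minus unsorted cells. Against MEF 3 to 4 of the 10 were 2-fold apart under all alternatives, against ESC 4 and against SC4 0.

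The labels give no replicate number by which to pair samples. Pairing by day is part of the fit, where day is a term, and without that term Klf3 in poised minus CD73- cells still passed. With 1 array per group, the number of arrays limits precision, and the floor of 100 limits what can be read for Pou5f1, Klf2, Mycn and Mycl.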
